A study of Mus musculus with 6 samples.

Results

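Cytosolic ribosomal protein genes encode the proteins that, with ribosomal RNA, build the small and the large subunit of the ribosome. Their mRNA signals were compared here between a mouse line induced to pluripotency in vivo and an embryonic stem cell line. Members were all array probes whose platform symbol is Rpl or Rps followed by a digit, or Rplp0, Rplp1, Rplp2 or Rpsa, without the S6 kinases and without symbols that contain -ps. The rule took 96 of the 45281 probes, which stand for 65 of the 19053 named genes. Of these, 23 encode small subunit proteins, 33 encode large subunit proteins and 9 are relatives, meaning paralogs, a transcribed pseudogene (Rps4l) or genes named after a ribosomal protein. After the filter on detection, 57 of the 65 were among the 8651 genes tested, and all 57 were detected on all 6 arrays.

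The i2PS line came from BALB/c liver, where hepatocytes were reprogrammed inside the animal, and E14TG2A is an ATCC-sourced Sv129 line derived from the blastocyst's inner cell mass. Both were grown in DMEM with LIF, at first on feeder fibroblasts and then for 3 passages on gelatin, and the labels give no other treatment. The study took 3 biological replicates of each line and used E14TG2A as the reference. Each group is a single line, so all errors and p-values reflect variation between cultures of that line, and strain, tissue of origin and reprogramming cannot be told apart. The error given for a gene also draws on the spread of all tested genes. It can therefore be larger than the spread of that gene's own arrays.

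Ribosomal protein mRNAs are among the most abundant in growing cells, and their products are made in matched amounts because each ribosome holds a single copy of nearly every protein. Their promoters typically start transcription within a run of pyrimidines, so that the mRNA carries a 5′ terminal oligopyrimidine (TOP) tract. Through this tract the mTORC1 kinase controls how well these mRNAs are translated, which an array of total RNA does not measure. Embryonic stem cells divide fast and are known for high expression of the ribosome assembly machinery.

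The start regions of 7 members are shown as examples, some called between the lines and some not. They do not stand for called or uncalled members at large. Each stretch runs 5′ to 3′ on the gene's strand, from 30 bases before the annotated start through 25 bases from the start on, and is RefSeq sequence of GRCm38.p6. Capitals mark the unbroken run of C and T that holds the annotated start base, or the start base alone where it stands in no such run. Rps6 (chr4:86857343-86857397, minus strand) and Rplp2 (chr7:141447621-141447675, plus strand) did not pass the test. Rps15a (chr7:118116123-118116177, minus strand), Rpl7a (chr2:26910777-26910831, plus strand), Rpl4 (chr9:64173357-64173411, plus strand) and Rpl3l (chr17:24727796-24727850, plus strand, the first of 2 annotated starts) were higher in i2PS. Rpl7l1 (chr17:46782632-46782686, minus strand) was lower in i2PS.
Rps6: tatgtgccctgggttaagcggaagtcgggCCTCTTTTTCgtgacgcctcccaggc
Rplp2: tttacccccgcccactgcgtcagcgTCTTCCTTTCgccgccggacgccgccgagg
Rps15a: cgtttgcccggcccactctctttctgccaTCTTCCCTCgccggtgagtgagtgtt
Rpl7a: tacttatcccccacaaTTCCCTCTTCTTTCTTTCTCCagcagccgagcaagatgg
Rpl4: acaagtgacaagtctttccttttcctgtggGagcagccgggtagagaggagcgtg
Rpl3l: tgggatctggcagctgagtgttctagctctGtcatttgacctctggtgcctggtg
Rpl7l1: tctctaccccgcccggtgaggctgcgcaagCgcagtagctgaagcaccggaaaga

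The start base lay in a pyrimidine run of 10 bases in Rps6 and Rplp2, of 9 in Rps15a and of 21 in Rpl7a. In Rpl4 the annotated start base is G, next to a pyrimidine-rich stretch that ends a few bases upstream, and in Rpl3l and Rpl7l1 no run surrounds it. Among uncalled members not shown, Rplp0, Rps4x and Rpl36a also had no run there. In Rpl39 the run was 5 bases. Whether such runs went with the calls was not tested. Windows from 250 bases before to 50 bases after the start were found for 46 of the 56 subunit genes, with 54 annotated starts. Among those starts, 29.6% lay in a run of 5 or more pyrimidines, against 10.1% of the 32851 windows of all genes. The ETS factor core TTCCGG, searched on both strands, was in 27 of the 54 subunit windows and in 14.9% of all windows. The E-box CACGTG was in 8 of the 54 (14.8%) against 7.15% of all windows. The YY1 motif GCCATCTT was in 3 (5.56%) against 2.75%, and the TATA box TATAAA in 5 (9.26%) against 13.6%. These counts are small, and genes with several starts count more than once. No window held overlapping hits of different motifs. Of the genes shown, Rps6, Rplp2 and Rpl7l1 hold TTCCGG, Rps15a and Rpl7l1 hold GCCATCTT, and Rpl7a, Rpl4 and Rpl3l hold none of the 4. These are matches of letters, and no binding was measured.

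Nearly all ribosomal protein genes lay close together in the lines after quantile normalization, which can remove part of a shift shared by many bright genes. Members were 35 of the 100 tested genes with the brightest probes. Few genes of any kind were called there, 0% in ranks 1 to 25 and 12% in ranks 26 to 100. Of the 57 tested, 7 were higher in i2PS, 1 was lower and 49 did not pass the test (limma, Benjamini-Hochberg adjusted p under 0.05), while 43.7% of all tested genes passed, 23.3% as higher and 20.4% as lower. The median log2 difference, i2PS minus E14TG2A, was 0.02 over the members, with its middle quartiles from -0.04 to 0.17, beside 0.03 over all tested genes. The members' median changed with the setting. It was -0.052 with cyclic loess scaling, beside 0.0014 over all tested genes, and 0.070 with the mean of a gene's probes, beside 0.034. Without E14TG2A replicate 1 it was 0.057, beside 0.0057 over all tested genes. Without replicate 2 of that line it was 0.046, beside 0.038, and without replicate 3 -0.0074, beside 0.031. The 95% confidence interval lay wholly within 2-fold for 56 of the 57, against 80.8% of all tested genes, and the exception was the muscle paralog Rpl3l, whose interval also lay within 2-fold under normexp, without background correction and in the authors' table. In size, whatever the direction, the median difference was 0.07 for members and 0.32 for all tested genes. The arrays of the lines did not overlap for 18 of the 57 members (31.6%), 14 above and 4 below E14TG2A, against 55.8% of all tested genes. In bulk RNA, fewer cells of a type and less RNA per cell cannot be told apart.

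By subunit, 1 of the 20 tested small subunit genes was higher and none was lower, with a median difference of -0.0008. Of the 30 tested large subunit genes 5 were higher and none was lower, with a median of 0.06. The difference between the subunits was not tested. All 50 had an interval within 2-fold. The 7 tested relatives held 1 higher and 1 lower gene.

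**Figure D1:**
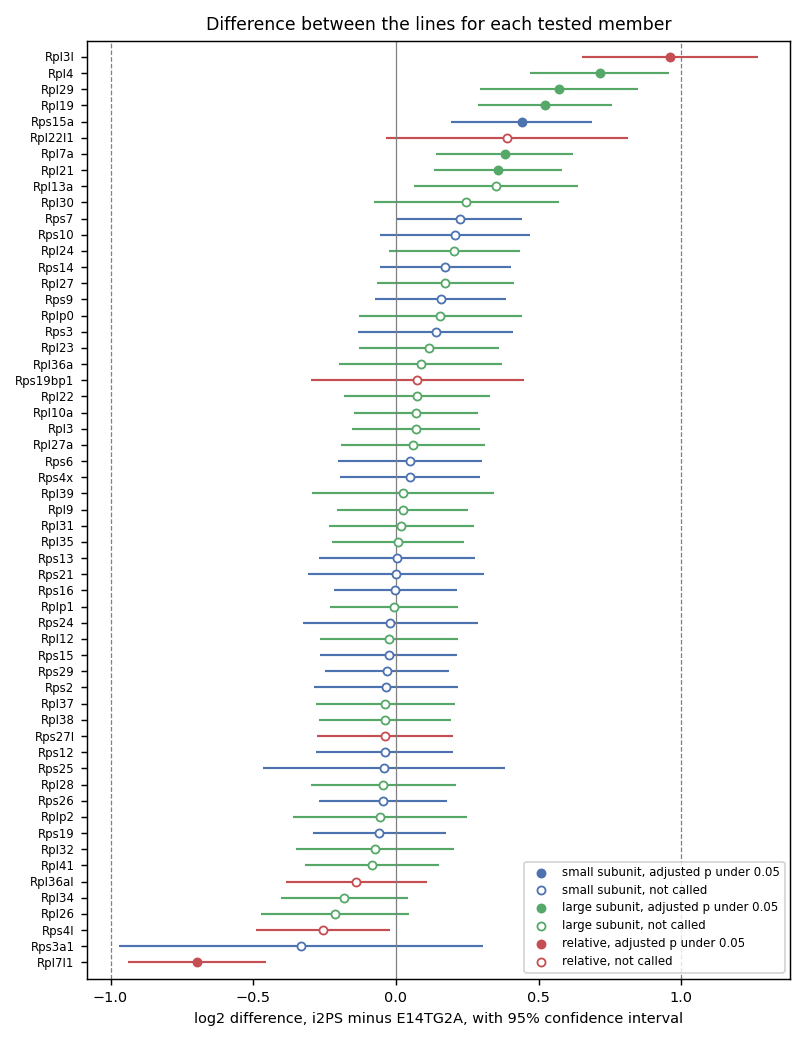
Log2 difference of each tested ribosomal protein gene (i2PS minus E14TG2A, 3 arrays per line) with its 95% confidence interval from the limma fit, sorted by size and coloured by subunit. Filled points are the 7 genes higher and the 1 gene lower in i2PS, open points are the 49 not called, and dashed lines mark 2-fold.

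Among the large subunit proteins that were higher, Rpl4, whose long loop reaches into the peptide exit tunnel, had log2 signals of 11.06, 11.07 and 10.94 in E14TG2A and 11.86, 11.64 and 11.71 in i2PS. The lines did not overlap, and the difference of 0.71 ± 0.11 (SE, n = 3 per line; limma adjusted p = 0.000847) is 1.64-fold. Rpl19, which helps bridge the subunits, read 12.47, 12.38 and 12.28 in E14TG2A and 12.96, 12.86 and 12.89 in i2PS. Its arrays were also separate, by 0.52 ± 0.10 (limma adjusted p = 0.00355). Rpl29, a small basic protein of the large subunit, read 9.75, 10.05 and 9.78 in E14TG2A and 10.53, 10.47 and 10.30 in i2PS. All its i2PS arrays stood above those of E14TG2A, by 0.57 ± 0.12 (limma adjusted p = 0.00516), but a dimmer probe of Rpl29 differed by -0.14 (adjusted p = 0.456 in the fit over probes).

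Rpl7a, a large subunit protein that binds ribosomal RNA, read 10.95, 11.11 and 10.91 in E14TG2A and 11.33, 11.44 and 11.35 in i2PS. The step between the lines was 0.38 ± 0.11 (limma adjusted p = 0.0175). Rpl21, another large subunit protein, read 7.95, 7.94 and 7.83 in E14TG2A and 8.27, 8.22 and 8.30 in i2PS, a difference of 0.36 ± 0.10 (limma adjusted p = 0.0177). Its 3 kept probes ran the same way, with differences of 0.36, 0.30 and 0.38, and all but that of 0.30 passed over probes. The single small subunit gene that was higher, Rps15a, read 5.83, 5.89 and 5.83 in E14TG2A and 6.13, 6.39 and 6.35 in i2PS. It rose by 0.44 ± 0.11 (limma adjusted p = 0.0106), at signals toward the dim end of the tested genes, and by 0.20 without background correction.

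Of the relatives, Rpl3l, the paralog of Rpl3 used in striated muscle, was higher in i2PS. Its log2 signals were 5.94, 5.69 and 5.45 in E14TG2A and 6.62, 6.75 and 6.60 in i2PS, from unnormalized signals of 107, 132 and 136 against 175, 192 and 174. The lines were separate on both scales, and the difference of 0.96 ± 0.14 (limma adjusted p = 0.000605) is 1.95-fold, with a 95% interval from 0.65 to 1.27. Its size depends on the background correction, since it was 0.58 with normexp, 0.46 with none and 0.46 in the authors' table, below the difference of Rpl4 in each, and it passed in all of them. Rpl3 itself, which stands in the ribosome of most cells, differed by 0.07 (limma adjusted p = 0.593).

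Rpl7l1, related to Rpl7 and known in human cells as a protein of large subunit precursors, was the gene that fell. It read 12.15, 12.03 and 12.07 in E14TG2A and 11.51, 11.36 and 11.28 in i2PS, a difference of -0.70 ± 0.11 (limma adjusted p = 0.000886), so that E14TG2A was 1.62-fold higher. A dimmer probe of Rpl7l1 fell by 0.45 (adjusted p = 0.0486 over probes). Before normalization its signals were 2534, 4657 and 5495 in E14TG2A and 2996, 2876 and 2660 in i2PS, so the first E14TG2A array lay below all of i2PS there. That array was dim for most genes, and without it the difference was -0.66 (limma adjusted p = 0.0013).

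The other relatives did not pass. Rps4l, named as a relative of Rps4x and annotated as a transcribed pseudogene in the RefSeq table, read 11.61, 11.62 and 11.43 in E14TG2A and 11.29, 11.29 and 11.31 in i2PS, without overlap, by -0.26 ± 0.10 (limma adjusted p = 0.0753). Rpl22l1, the paralog of Rpl22 and the dimmest member tested, read 5.66, 5.57 and 5.04 in E14TG2A and 5.56, 6.08 and 5.79 in i2PS, with overlap, by 0.39 ± 0.19 (limma adjusted p = 0.123). Rps27l, a paralog of Rps27 that p53 induces, differed by -0.04, Rpl36al, the autosomal paralog of Rpl36a, by -0.14, and Rps19bp1, which binds Rps19 and is no ribosomal protein, by 0.08 (limma adjusted p from 0.326 to 0.794).

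Rplp0, Rplp1 and Rplp2 form the stalk on which elongation factors act, and none passed. Rplp1 had the brightest probe of all tested genes, with unnormalized signals of 27838, 33688 and 33737 in E14TG2A and 29405, 33981 and 33910 in i2PS and a log2 difference of -0.01 ± 0.10 (limma adjusted p = 0.96). Rplp2 read 14.56, 14.16 and 14.12 in E14TG2A and 14.28, 14.21 and 14.18 in i2PS, so that i2PS lay inside the spread of E14TG2A. Rplp0, a common reference gene for expression assays, differed by 0.16 (95% interval -0.13 to 0.44; limma adjusted p = 0.345).

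Rps6, the small subunit protein that S6 kinases phosphorylate, read 13.83, 14.04 and 13.75 in E14TG2A and 13.96, 13.89 and 13.91 in i2PS, a difference of 0.05 ± 0.11 (limma adjusted p = 0.74). The X-linked Rps4x, Rpl36a and Rpl39 differed by 0.05, 0.09 and 0.02, with 95% intervals that ran from -0.30 at the lowest to 0.37 at the highest (limma adjusted p from 0.606 to 0.906). Rps3a1, chosen for mention after its values were seen, had the widest interval among the subunit genes, at 9.40, 8.22 and 8.31 in E14TG2A and 8.59, 8.15 and 8.20 in i2PS. The first E14TG2A array stood alone there, and the difference was -0.33 ± 0.28 (limma adjusted p = 0.365).

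**Figure D2:**
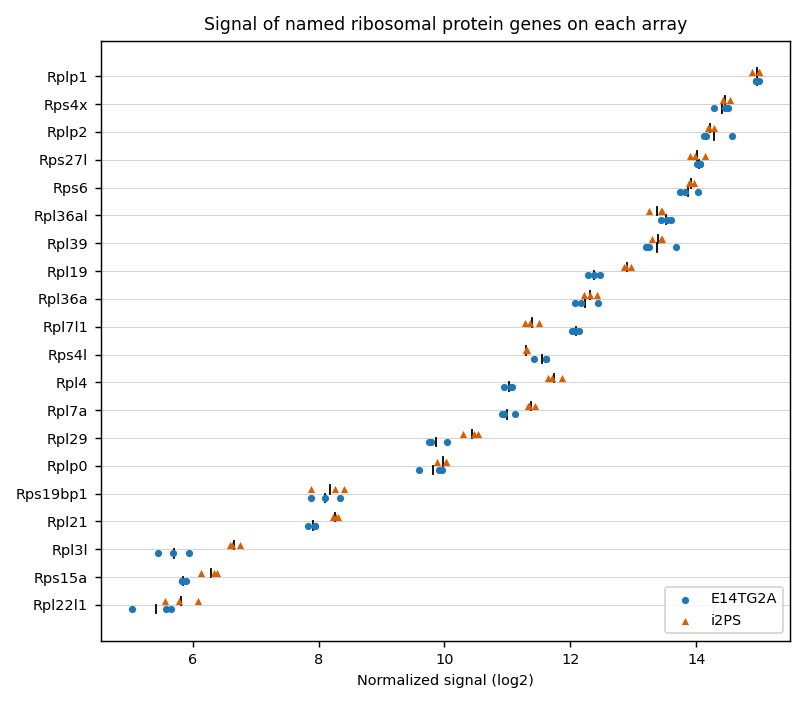
Normalized log2 signal of the named ribosomal protein genes on each of the 3 E14TG2A arrays (circles) and 3 i2PS arrays (triangles), with short vertical lines at the mean of each line. Rpl3l, Rpl4, Rpl29, Rpl19, Rps15a, Rpl7a and Rpl21 lie to the right in i2PS and Rpl7l1 to the left, while the points of Rplp1 fall together.

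The 8 calls depend on how the arrays were scaled. When arrays were scaled to equal medians instead, only Rpl3l of these 8 still passed, the members' median was 0.16 beside 0.19 for all tested genes, and 634 of all genes passed in place of 3781. Leaving out i2PS replicate 3 left 4 genes higher, without Rps15a, Rpl7a and Rpl21 (limma adjusted p from 0.0504 to 0.0732), Rps15a and Rpl7a also failed without i2PS replicate 2, and Rpl7a and Rpl21 without E14TG2A replicate 3.

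The probes of these genes sit at the top of the arrays' range, and how far they differed went with their brightness. Members made up 4 of the 10, 24 of the 50 and 35 of the 100 tested genes with the brightest probes. A probe's brightness depends on its own sequence as well as on its mRNA, so these ranks do not order transcript amounts. Among the 25 brightest genes 11 were members, none of them called, and 0% of all 25 were called. In ranks 26 to 100 none of 24 members was called, against 12% of all genes there.

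Farther down, 1 of 7 members was called in ranks 101 to 400 (37.7% of all genes there), 4 of 8 in ranks 401 to 1600 (42.2%) and 3 of 7 beyond (44.7%). The members' median size of difference was 0.04 and 0.05 in the 2 brightest ranges and 0.20, 0.37 and 0.36 in the 3 below, in log2 units. The rank ranges were chosen after values had been seen. Across the 50 tested subunit genes, the difference had a Pearson r of -0.45 and a Spearman rho of -0.43 with mean log2 signal, and its size had -0.65 and -0.58. These points share the same 6 arrays and are given as a description.

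Among the brightest 10% of tested genes, 3 of 48 members were higher and 1 was lower, while 37.2% of the 817 other genes there were called. The interval lay within 2-fold for all 48 members and for 95.3% of those others. Below the brightest 10%, 4 of 9 members were higher and none was lower, a share close to the 44.6% of the 7777 other genes called there. Members crowd the very top of that range, and a test matched for rank was not made.

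**Figure D3:**
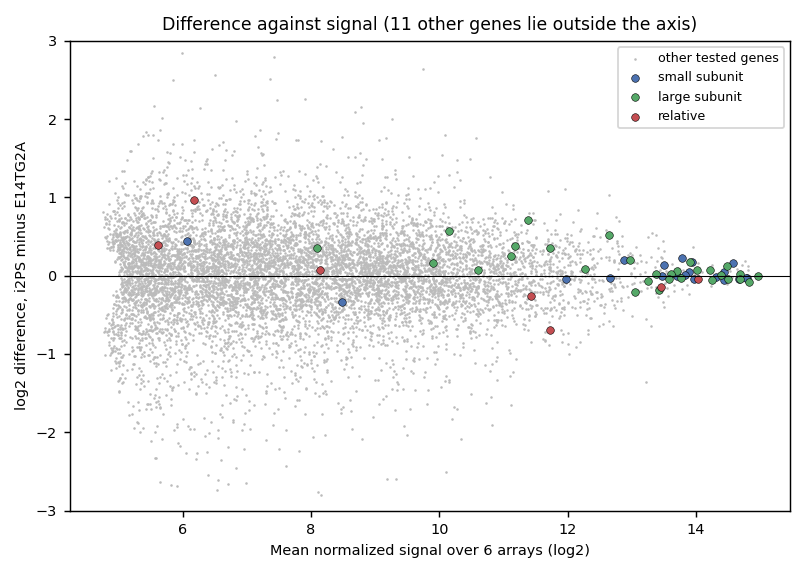
Log2 difference (i2PS minus E14TG2A) against mean normalized log2 signal over the 6 arrays for every tested gene, with ribosomal protein genes coloured by subunit; 11 other genes lie outside the plotted range. The members gather at the right end, where 35 of the 100 brightest genes are members, and narrow around 0.

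The first E14TG2A array was dim, and the members held a larger share of its signal. Its mean unnormalized signal was 228, against 340 to 403 on the other 5 arrays, and 13994 probes were detected on it, against 14953 to 15922. The median unnormalized signal of the subunit genes was 9137 there and 13606 to 14419 elsewhere. Members held 11.7% of the summed signal of all tested genes on that array. The share was 8.82% and 8.23% on E14TG2A replicates 2 and 3, and 9.30% to 9.36% on the i2PS arrays. Whether this share differed between the lines was not tested.

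Against the mean of the other E14TG2A arrays, the dim array had a median signal ratio of 0.76 over the 25 brightest genes, 0.57 over ranks 26 to 100, 0.46 over ranks 101 to 400 and 0.43 over ranks 401 to 1600. Among members this ratio ran from 0.361 in Rplp0 to 0.959 in Rps24. After normalization the median of the subunit genes was 13.74 on the dim array and 13.59 to 13.73 on the others. Without the dim array 9 members were higher and 1 was lower, and the 8 genes named above all passed in the same direction. The part that the arrays' upper limit has in the small differences of the brightest members was not tested.

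**Figure D4:**
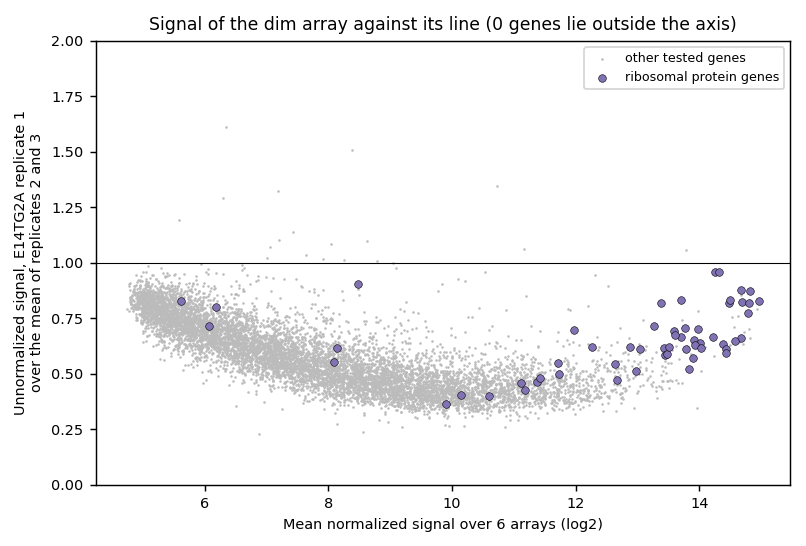
Unnormalized signal of E14TG2A replicate 1 divided by the mean of replicates 2 and 3 of that line, against mean normalized log2 signal, for each tested gene, with ribosomal protein genes as large points. Most genes lie well below 1, lowest in the middle of the range, and the ratio climbs again at the bright end, where Rps24 reaches 0.959.

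Quantile normalization also fixes which values the brightest genes can take. Rps29, chosen for mention after its values were seen, has 14.78 on all 3 i2PS arrays because it held the same rank on each, from unnormalized signals of 28176, 29560 and 28759. Its E14TG2A arrays read 14.84, 14.81 and 14.79, all above, yet the difference was -0.03 ± 0.10 (limma adjusted p = 0.821).

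Genes with several probes gave a further reading on the same RNA samples, though probes of a gene can be annotated to different transcripts. Of the 77 kept probes of members, 10 were higher and 3 lower, against 40.6% called among the 12841 kept probes of all genes. No gene had kept probes that passed in opposite directions among the 15 members with at least 2. In several genes a dim probe differed more than the bright one that stood for the gene. In others, Rpl29 and Rpl7l1 among them, the dimmest kept probe differed less in size. The genes that follow were picked after their values were seen. Rpl23, a large subunit protein, had 0.12 at a mean log2 signal of 14.49 and 0.37 at 11.89, where it passed (adjusted p = 0.0227 over probes).

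Rps24, a small subunit protein, had -0.02 at 14.31 but 0.42 at 9.87, where it passed (adjusted p = 0.0184 over probes), and 0.34 at 6.53, where it did not. Rps19, mutated in the inherited anemia of Diamond and Blackfan in humans, went from -0.06 on its bright probe to 0.35 on its dim one, and Rpl38 from -0.04 to 0.34, neither past the threshold. Rpl28 went the other way, from -0.04 to -0.34 (adjusted p = 0.0243 over probes for the dim probe). The probes with calls of Rpl23, Rps24 and Rpl28 were not the ones that stood for these genes. Probe sequences were not analysed here. The kept Rps24 probes are annotated to different transcript records. Whether dim probes read other transcripts, processed pseudogene copies, or bases that differ between BALB/c and Sv129, was not tested.

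Of the 65 member genes, 8 had no probe that passed the filter. Rpl14, Rpl17, Rpl6, Rps20, Rps23 and Rpsa were detected on none of the 6 arrays, the testis paralog Rpl39l on 1, and Rps23rg1, a retrogene named after Rps23, on at most 1. In 7 other genes, among them Rpl4, Rplp0 and Rplp2, 8 probes were likewise detected on no array while another probe of the same gene was. No level is given for these 8 genes, and Rpl5, Rpl11 and Rpl10 were not analysed here.

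The cell identity of the lines was read from marker lists. All 10 pluripotency markers, Pou5f1, Sox2 and Nanog among them, were detected on all 6 arrays. Of these, 3 were higher in i2PS (Tdgf1, Esrrb and Zfp42) and none lower, beside 23.3% and 20.4% of all tested genes. The calls of Tdgf1 and Zfp42 were each lost without any of several single arrays (limma adjusted p from 0.0569 to 0.124). All 8 hepatocyte markers, Alb and Afp included, were detected on none. Of 8 fibroblast markers 5 were on none, Col1a1 was on 2 arrays and Dcn on 1, and Thy1, on all 6, was higher in i2PS by 0.84 ± 0.16 (limma adjusted p = 0.00268), and by 0.44 without background correction. Esrrb and Thy1 each lost their call under 1 of 19 alternative settings (limma adjusted p = 0.317 and 0.0802). The part of remaining feeder cells in the members' values was not tested.

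Genes that serve the ribosome were read from 6 further lists, and differences between the lists were not tested. Over all tested genes, 43.7% were called, 23.3% as higher and 20.4% as lower, with a median of 0.03. No list was tested against these shares. Among 13 tested genes of RNA polymerase I and ribosomal RNA transcription, 4 were higher and none lower, with a median of 0.11. They were the termination factor Ttf1 at 0.84 ± 0.13, on a dim probe, the catalytic subunit Polr1a at 0.58 ± 0.12, Polr1c at 0.55 ± 0.10, and the initiation factor Rrn3 at 0.44 ± 0.11. Of 9 chaperones and importers of ribosomal proteins 4 were higher and 1 was lower. The importer Ipo7, counted among the 4, was detected on 3 i2PS arrays but on 1 of 3 E14TG2A arrays. It entered the test only through the line where it is high, so its call is no support for the list. Its size is not given, nor is a median of the list, which would include it. Heatr3 differed by 0.63 ± 0.14, Bccip by 0.53 ± 0.11, and Pdcd2, a chaperone of Rps2, by -0.40 ± 0.11.

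In ribosome assembly and rRNA processing, 11 of 47 tested genes were higher and 7 lower, with a median of 0.10. That median includes Nolc1, not called, which was detected on 3 i2PS arrays but on 2 of 3 E14TG2A arrays. Nolc1 entered the test only through i2PS. Of all tested genes, 23.3% were higher and 20.4% lower. Bop1, of the complex that processes large subunit precursors, was higher by 0.78 ± 0.13, nucleolin (Ncl) by 0.74 ± 0.10 and Noc3l by 0.67 ± 0.13. The box C/D and H/ACA particle proteins Nop58 and Nop10 were lower, by -0.55 ± 0.11 and -0.50 ± 0.10, and Sbds, which acts late in large subunit maturation, by -0.44 ± 0.13.

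Among translation factors and other TOP mRNAs, 3 of 16 were higher and 1 was lower, with a median of 0.12. This stands beside 23.3% higher and 20.4% lower over all tested genes. The list's median includes Eif3h, not called, which was detected on 2 of 3 i2PS arrays and entered the test only through E14TG2A. The start sequences of this list were not examined here. The initiation factor Eif4b differed by 0.75 ± 0.17, Btf3 of the nascent chain complex by 0.70 ± 0.10, and the elongation factor subunit Eef1d by 0.37 ± 0.10. Tpt1 was lower by -0.47 ± 0.11, on a dim probe that read 5.69, 5.77 and 5.55 in E14TG2A and 5.08, 5.27 and 5.26 in i2PS.

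In the mTORC1 and S6 kinase list 3 of 12 were higher and none lower, with a median of 0.04. The shares over all tested genes were 23.3% higher and 20.4% lower. Tsc1 and Tsc2, which restrain mTORC1, rose by 1.13 ± 0.14 and 0.54 ± 0.11, and Mlst8, a subunit of the kinase complex, by 0.98 ± 0.14. Free Rpl5 and Rpl11 bind the ubiquitin ligase Mdm2 and so release p53. Mdm2 read 11.77, 11.62 and 11.81 in E14TG2A and 10.75, 10.71 and 10.53 in i2PS, a drop of -1.07 ± 0.11 (limma adjusted p = 0.000113) with no overlap, and its partner Mdm4 differed by 0.11 (limma adjusted p = 0.6).

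All named genes of these lists had a limma adjusted p under 0.05 except Mdm4. Under equal medians only Tsc1 and Mlst8 among them still passed. Without background correction, Ttf1 fell from 0.84 to 0.36, Tsc1 from 1.13 to 0.61 and Eif4b from 0.75 to 0.49, and with the mean of each gene's probes Btf3 was 0.38, Tsc1 0.59 and Eef1d 0.64, all still past the threshold. The calls of Sbds were lost when any array but E14TG2A replicate 1 was left out (limma adjusted p from 0.058 to 0.0809), of Pdcd2 without i2PS replicate 2 or 3 (0.0732 and 0.0638) and of Eef1d without i2PS replicate 3 (0.0622), and Tpt1 was lost without background correction (0.0742) and in the authors' table (0.0727).

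**Figure D5:**
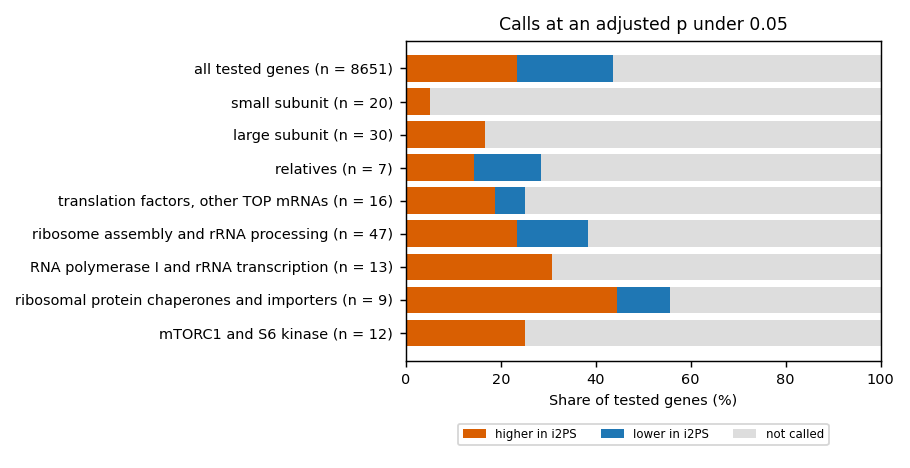
Share of tested genes, in percent, called higher (orange), lower (blue) or not called (grey) in i2PS at a limma adjusted p under 0.05, for all tested genes, the 3 kinds of ribosomal protein genes and 5 lists of genes that serve the ribosome. The small subunit has 1 call in 20 genes and the large subunit 5 in 30, while 43.7% of all tested genes were called. The higher calls among chaperones and importers include Ipo7, which entered the test only through i2PS.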

How the data were processed

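Illumina bead arrays of 1 colour were read for the total RNA of 6 cultures. The deposited table gives linear probe intensity from GenomeStudio, per the submitters' processing notes, with no version given, and beside it the authors' detection p-value in steps of 1 in 936. A processed table of the authors' intensity values is quantile normalized, as read from its values, and served as an alternative. Its direction and centring follow the arrays, with medians of 96.7.

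Deposited intensity values were turned into log2 values with neqc in limma 3.58.1 (R 4.3.3), with background from the detection p-values, an offset of 16 and quantile normalization. Probes with 1 symbol and a detection p under 0.01 on all 3 arrays of a line were kept, 12841 in all, and the probe with the highest mean stood for its gene. Of 34885 probes with 1 symbol, 34807 were matched to a RefSeq table of GRCm38.p6 by gene number, 11 by accession, and 67 kept the platform symbol. A further 18 probes had several symbols and 10378 were unlisted. The comparison used lmFit and eBayes, with p-values adjusted over all tested genes or, where stated, probes, and the code was tested on simulated data.

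The members and lists were chosen with earlier results of these data known, and Rps23rg1 was placed among the relatives after its symbol was seen. Named were called members, Rplp0, Rplp1, Rplp2, Rps6, the X-linked members, the relatives, the brightest and dimmest member, and up to 3 genes per direction of each list; others are marked or chosen after their values were seen, Rpl3, Rpl23, Rps24, Rps19, Rpl38, Rpl28 and Rrn3 among them. Alternatives changed background correction, scaling, filter, probe choice, variance model, replicate block and arrays.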

Additional observations from a re-analysis of the deposited data

How the results depend on the processing

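The 7 higher calls became 1 with equal medians and 12 with array weights, and ran from 4 without i2PS replicate 3 to 9 without E14TG2A replicate 1. The 1 lower call became 0 with equal medians and 2 with normexp at an offset of 50, with no background correction, in the authors' table, with a variance trend and robust moderation, and with array weights. Of the member probes 13 were called, and 1 with equal medians, 20 with the variance trend and 22 with array weights. Without 1 array they numbered 5 (i2PS replicate 3), 7 (E14TG2A replicate 3 or i2PS replicate 2) and up to 14 (E14TG2A replicate 1). The members' median of 0.02 was 0.16 with equal medians, beside 0.19 for all genes. With cyclic loess it was -0.052, beside 0.0014 for all genes. When the loess curves were fitted without member probes (a setting chosen after seeing the data) it was -0.051, beside 0.0018. With the mean of a gene's probes it was 0.070, beside 0.034 for all genes. With 1 array left out it ran from -0.0074 (without E14TG2A replicate 3) to 0.057 (without E14TG2A replicate 1), beside 0.031 and 0.0057 for all genes. Under equal medians 39 of 57 intervals lay within 2-fold and 634 of all genes were called (3781 otherwise). No called difference of a gene named in the text changed sign under these alternatives. Rpl3l passed under all 19 alternatives, at 0.46 to 1.11, and Rpl29 failed with the mean of its probes (0.22, adjusted p = 0.145). Rps4l passed under 5 alternatives and Rpl22l1 with array weights (adjusted p = 0.0356). The cause of these shifts was not tested. The replicate numbers did not pair the samples (correlations of 0.01, -0.05 and 0.07), and a replicate block gave 8 higher, 1 lower and 12 probes. The planned block on slides was left out, since the labels and tables name none. Rpl3l, Rps15a and Rpl22l1 were read from signals near background.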
